A study of Mus musculus with 12 samples.

Results

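The replication-dependent histone genes were described in the striatum of hemiparkinsonian mice 1 hour after L-DOPA. Every gene of the transcript table whose symbol begins with Hist1h, Hist2h, Hist3h or Hist4h was taken, which gave 69 genes of 52169 gene symbols and 148 of 189660 transcripts. Each gene was read at its top transcript, the model with the highest mean CPM over all libraries (CPM, the count scaled to the size of the library). Of the 69 genes, 6 encode linker histone H1, 19 encode H2A, 19 encode H2B, 12 encode H3 and 13 encode H4. The Hist1 cluster on chromosome 13 holds 55 of them, the Hist2 cluster on chromosome 3 holds 10, the Hist3 cluster on chromosome 11 holds 3 and chromosome 6 holds Hist4h4 alone. The top transcript listed for Hist1h2bg was out of place, on chromosome 3, over Hist2h2bb and Hist2h3b. The models of Hist1h2al all lie outside the main cluster. Its top transcript, at chr13:51295453-51301323, has 3 exons and held 1028 counts. A single-exon model of 378 bases inside that span held 2 counts.

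All mice were female C57BL/6J. Each had received the dopamine neurotoxin 6-OHDA into the right medial forebrain bundle after desipramine, which spares noradrenergic neurons, and had recovered for 2 weeks. The 4 groups of 3 libraries came from the lesioned (right) or the unlesioned (left) striatum after a single intraperitoneal dose of L-DOPA (acute) or after daily doses for 9 days (chronic), at 10 mg/kg with 7.5 mg/kg benserazide. No saline-treated or unoperated mice were among these libraries, so all groups carry the lesion of the right hemisphere and L-DOPA. The age of the mice is not given in the sources used here. Markers of medium spiny neurons, the main neurons of the striatum, were at 1490 to 2070 CPM in sum in every library. Treatment and any batch of library preparation cannot be told apart.

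Histones package DNA. An octamer of H2A, H2B, H3 and H4 forms the nucleosome core, and H1 binds the linker DNA. Most histone protein is made from these clustered genes during S phase, and their mRNAs, which usually lack introns, are cut just after a conserved stem-loop and carry no poly(A) tail. The stem-loop is bound by Slbp. In cells that have left the cell cycle, such as neurons, histones are supplied mainly by replication-independent variants, whereas some clustered genes can also give rise to longer, polyadenylated mRNAs. The libraries were made with a TruSeq RNA kit, and RNAs without a poly(A) tail were hardly counted: of 16 such RNAs listed, 15 were in the table and 1 or 2 passed the count filter in each comparison, and Rn7sk, a small nuclear RNA, lay between 0.234 and 0.753 CPM.

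The stem-loop was searched in the mm9 genome within 120 bases after the stop codon of the GENCODE vM1 models. The search took 16 bases that begin with GG and end with CC, with pyrimidines in the left arm and purines in the right arm. It was present in 63 of the 67 histone genes found in GENCODE, and in 65 of 21838 genes with a stop codon (0.298%). There were 8 distinct sequences, 1 of which was shared by 39 genes. No match says only that these letters are not in this window. The stem-loops of H1, H2A, H2B and H4 genes that the results turn on are printed here to show what the short mRNAs end in, with that of Hist1h2bb for the form that 9 genes share. Capitals mark the stem-loop, and each is given 5′ to 3′ on the strand of its gene.
Hist1h1c, chr13:23831376-23831401 (+ strand): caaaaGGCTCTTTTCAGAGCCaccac
Hist1h1e, chr13:23713646-23713671 (- strand): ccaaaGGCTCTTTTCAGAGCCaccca
Hist3h2a, chr11:58768669-58768694 (+ strand): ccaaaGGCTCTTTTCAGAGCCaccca
Hist1h2ac, chr13:23775341-23775366 (- strand): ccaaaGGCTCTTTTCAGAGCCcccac
Hist1h2bc, chr13:23776511-23776536 (+ strand): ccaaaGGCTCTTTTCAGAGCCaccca
Hist3h2ba, chr11:58762846-58762871 (+ strand): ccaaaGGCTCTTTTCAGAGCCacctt
Hist1h2bb, chr13:23839067-23839092 (+ strand): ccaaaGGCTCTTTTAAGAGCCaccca
Hist1h4i, chr13:22132830-22132855 (- strand): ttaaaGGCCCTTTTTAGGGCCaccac
Hist1h4k, chr13:21842014-21842039 (- strand): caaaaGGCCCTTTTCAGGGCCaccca
Hist2h4, chr3:96066857-96066882 (- strand): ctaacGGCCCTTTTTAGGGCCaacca
Hist4h4, chr6:136752514-136752539 (- strand): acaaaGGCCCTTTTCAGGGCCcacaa
Hist1h2bb differed inside the loop from the other H1, H2A and H2B genes printed, which carried the same 16 bases. Hist1h4k and Hist4h4 carried a form with CCC and GGG in the arms, and Hist1h4i and Hist2h4 carried that form with another loop. Hist2h2be, which was among the 6 genes with the most counts, had no match in the window.

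Few of the genes had counts at any depth. The libraries held between 87695043 and 173116525 counts each, and the 69 histone genes held 37700 counts in all over the 12 libraries. No count was found for 8 genes (Hist1h2ag, Hist1h2ak, Hist1h2ao, Hist1h2ap, Hist1h2ba, Hist1h3h, Hist1h4f and Hist1h4m), which allows up to 3 counts per library. Another 27 genes had 1 to 12 counts in total, 18 had 13 to 99, and 16 had 100 or more. A count in each library was found for 17 genes. The 6 genes with the most counts (Hist3h2a, Hist1h1c, Hist1h2bc, Hist3h2ba, Hist1h2be and Hist2h2be) took 86.6% of the counts of all 69. The 3 genes of the Hist3 cluster took 38.1%, and the 55 genes of the Hist1 cluster took 53.6%.

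Levels between genes were compared per kilobase of transcript (CPM per kb). Hist1h2bc, an H2B gene, had the highest mean over all 12 libraries at 5.87 CPM per kb. Hist3h2a, an H2A gene, followed at 3.57, Hist1h1c, which encodes a linker histone found in many non-dividing tissues, at 3.38 and Hist3h2ba, an H2B gene, at 3.37 CPM per kb. The order of these 4 differed between the groups. Hist1h2bc was first in each, at 6.99 and 7.69 CPM per kb in the unlesioned and lesioned striatum after acute and 3.86 and 4.93 after chronic L-DOPA. Hist3h2ba was lowest of the 4 after acute L-DOPA (2.76 and 2.89) and followed Hist1h2bc after chronic L-DOPA (3.34 and 4.48), while Hist1h1c went from 4.14 and 5.06 to 1.91 and 2.43, the lowest of the 4, and Hist3h2a from 4.28 and 3.91 to 3.04 and 3.06 CPM per kb. The next genes were several times lower in their means over all libraries: Hist1h2be at 0.552, Hist2h2be at 0.532, Hist1h4i at 0.374, Hist1h4k at 0.302, Hist2h3c2-ps at 0.294, Hist1h4h at 0.232, Hist1h1e at 0.23 and Hist1h2al at 0.206 CPM per kb. This order too differed between the groups: after chronic L-DOPA Hist1h2be (0.215 and 0.239 in the unlesioned and lesioned striatum) lay below Hist2h2be (0.478 and 0.38), and Hist1h1e (0.0891 and 0.0901) below Hist1h2al (0.203 and 0.257). The highest H3 entry was Hist2h3c2-ps, which is annotated as a pseudogene and overlaps Hist2h3c1. The highest level of another H3 gene was that of Hist1h3d at 0.0693 CPM per kb. Summed over the genes of a class and not scaled by length, the libraries held 2.65 to 9.21 CPM of H1, 6.98 to 10.9 CPM of H2A, 6.39 to 13.8 CPM of H2B, 0.0737 to 1.05 CPM of H3 and 0.423 to 1.86 CPM of H4, with genes that overlap counted more than once.

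**Figure D1:**
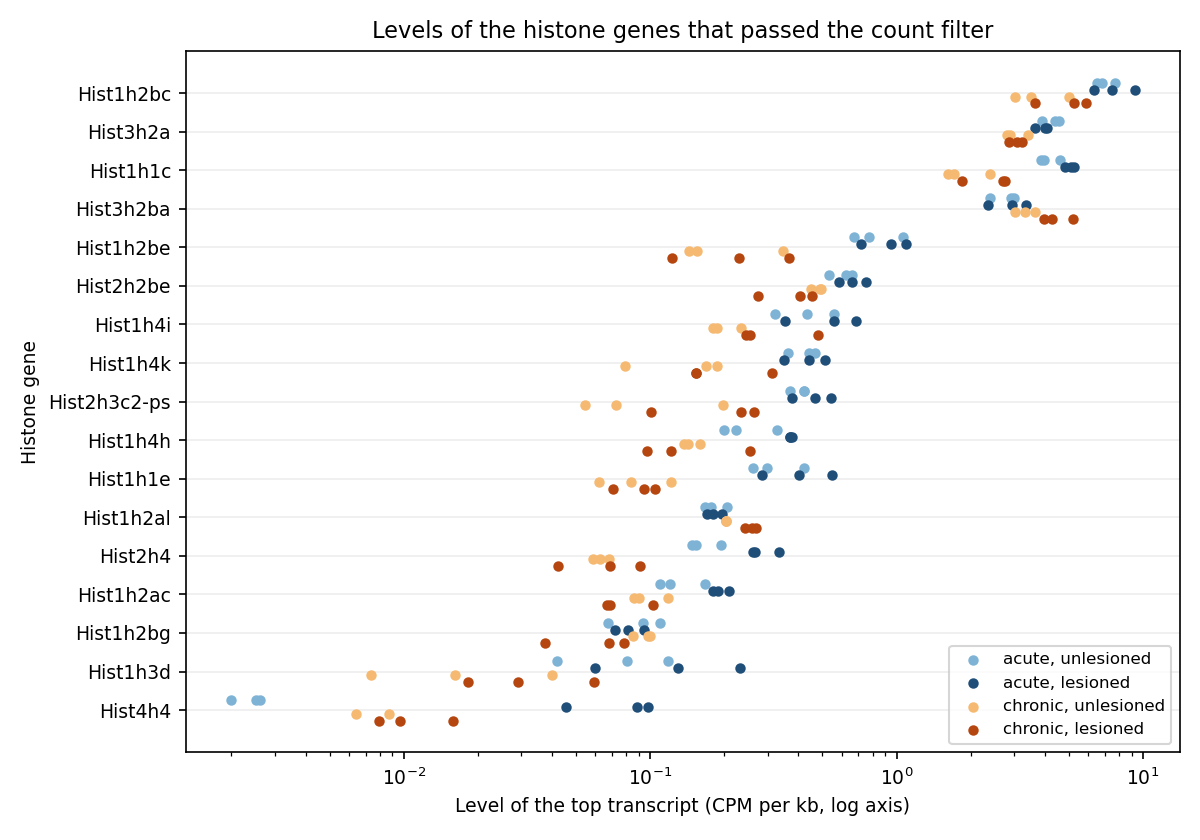
Level of the top transcript of the 17 histone genes that passed the count filter in any comparison, in CPM per kb on a log axis, 1 point per library, coloured by group. Hist1h2bc, Hist3h2a, Hist1h1c and Hist3h2ba lie above the other genes in their means, the libraries after chronic L-DOPA (orange and brown) lie to the left of those after acute L-DOPA (blue) for most genes, and the chronic unlesioned library of Hist4h4 with 0 counts is not drawn.

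Genes with a model that runs on past the stem-loop passed the count filter more often by number than those without. For 28 genes the table lists a model that ends more than 50 bases past the stem-loop, and 13 of these 28 passed the count filter in at least 1 comparison, with a median of 60.0 counts in total. For 31 genes no model ends more than 50 bases past it, and 1 of these 31 (Hist1h4h, 160 counts) passed, with a median of 4.0 counts. The remaining 10 had no stem-loop on their models, and 3 of them passed. The top transcript was itself chosen by its count, and a longer model holds more counts by its length alone.

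The single-exon model with the most counts among those that run past the stem-loop was set beside the most counted shorter one. For 12 genes the shorter model lies inside the longer, so the counts can be divided between the shared part and the part that only the longer model holds. Genes whose most counted shorter model reaches outside the longer one, such as Hist1h4j, were left out. The shorter model holds the stem-loop for 4 of them (Hist1h1e, Hist1h2bh, Hist1h3c and Hist1h3i) and ends before it for the other 8, whose remaining part therefore also holds the bases up to and over the stem-loop, and the longer model may also start further upstream. In all 12, the 4 included, the share of counts in the part outside the shorter model was above its share of bases. Hist1h1e had 674 counts on the model of 1931 bases and 142 on that of 748 bases, so 78.9% of the counts fell on 61.3% of the bases. Outside the shorter model, the longer model of Hist1h1e overlaps the first exon of Hist1h2be. Some of these counts may therefore be of Hist1h2be, which was not tested. Hist1h3i and Hist1h2bh, with 57 and 52 counts, had 87.7% on 73.2% and 82.7% on 74.0%. Among the genes whose shorter model lacks the stem-loop, Hist1h4k had 268 counts on 593 bases and 71 on 312 bases, which put 73.5% of counts on 47.4% of bases. Hist1h3d, which encodes H3, had 131 counts against 17. Hist4h4 had 91 counts on 2866 bases and 6 on the 341 bases of the shorter model, and 81 counts on another model, chr6:136750326-136752512, that lies wholly past the stem-loop. A hexamer of the poly(A) signal (AATAAA or ATTAAA) lay in the last 50 bases of the top transcript of 8 of the 12 genes with the highest level per kb, of 10 of the 17 that passed the filter, of 8 of the other 52 and of 45.3% of all genes. The coding parts of these genes are alike: of 63 top models compared, 27 shared more than 50% of their 35-base stretches with another histone gene. How reads with several positions were counted is not stated, and the part of this in the low counts was not tested.

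**Figure D2:**
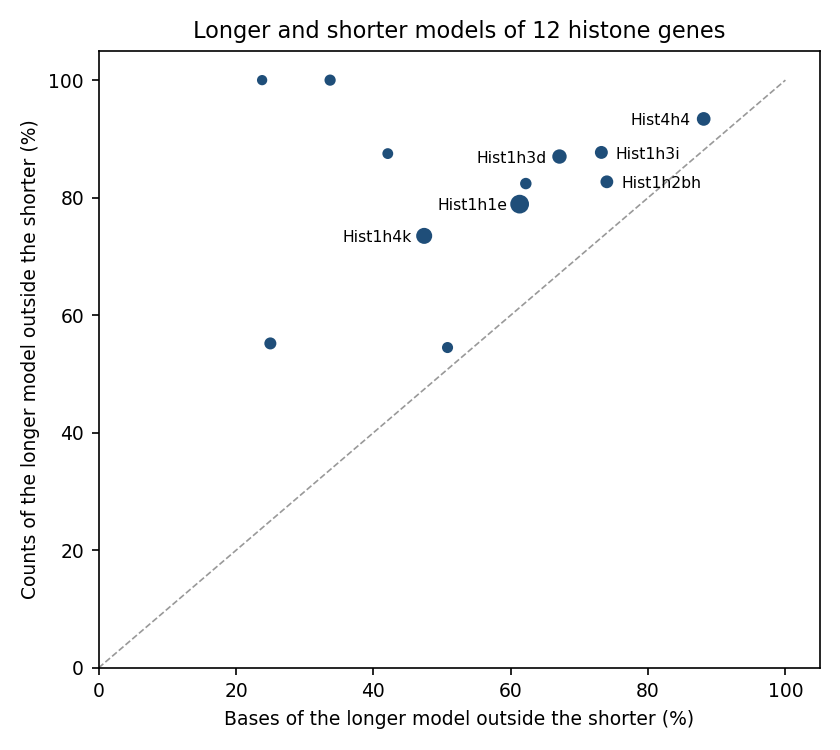
For 12 histone genes, the share of bases of the longer model that lie outside the shorter model (horizontal axis, %) and the share of its counts that lie there (vertical axis, %), over all 12 libraries. Each point is a gene, larger with more counts, genes with at least 50 counts are named and the dashed line marks equal shares; every point lies above the line, the nearest being Hist1h3e (54.5% of counts on 50.8% of bases, 11 counts) and Hist4h4 (93.4% on 88.1%).

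Several of the counted models share reads with other genes. Hist1h2be was counted on a model with 2 exons at chr13:23675539-23712993 (minus strand) whose first exon overlaps Hist1h1e, so counts of these 2 genes are not independent. Hist3h2a overlaps Trim17 and an unnamed cDNA, and Hist2h3c2-ps overlaps Hist2h3c1. Hist2h2aa1 overlaps Hist2h2aa2, Hist1h2bq overlaps Hist1h2br, and Hist1h2ao overlaps Hist1h2ap. In all, 13 of the 69 top transcripts overlap another histone gene and 9 overlap another entry of the table, which makes 19 with any overlap. Values of Hist1h2bg and Hist1h2al belong to the top transcripts described above and may not be of those histone genes.

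The first comparison set the lesioned against the unlesioned striatum after a single dose of L-DOPA. As a check of the labels, Fosb, an immediate early gene, lay at 8.37 to 9.31 CPM in the unlesioned and 213 to 242 CPM in the lesioned libraries of this comparison. Of the 69 histone genes, 17 passed the count filter and 3 were called at an adjusted p under 0.05 (quasi-likelihood test of edgeR, p-values adjusted by Benjamini-Hochberg over every transcript tested), beside 12.9% of all transcripts tested. All 3 rose, beside 6.85% of transcripts called higher. The median difference over the 17 was 0.20 on the log2 scale, against 0.01 over all transcripts tested. The test made 1 call, Hist4h4, at an adjusted p under 0.01.

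Hist4h4, which encodes histone H4 and lies at chr6:136750074-136752939 on the minus strand, showed the greatest fitted difference. Its counts were 1, 1 and 1 in the unlesioned libraries after acute L-DOPA and 37, 22 and 14 in the lesioned libraries. After chronic L-DOPA they were 2, 3 and 0 in the unlesioned and 2, 3 and 5 in the lesioned libraries. The 3 lesioned libraries of the acute group thus stood above the other 9 libraries. The ratio of the summed counts after acute L-DOPA, scaled to library size, was 33.5 (exact 95% interval 11 to 166, counting error only, for 73 against 3 counts), and the fitted difference of 4.87 ± 0.54 (SE) on the log2 scale (adjusted p = 0.000112, edgeR) rests on those few counts. Hist4h4 passed the count filter only through the acute lesioned libraries, where it was high, so its p and its place among the 3 calls depend on a filter that the difference itself decided. With no filter the fit gave 4.86 and an adjusted p of 5.91e-06 (edgeR). Over all libraries, 81 counts lay on the model past the stem-loop printed above, against 91 on the whole.

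Hist2h4, another H4 gene, had 0.313, 0.238 and 0.247 CPM in the unlesioned and 0.538, 0.428 and 0.419 CPM in the lesioned libraries after acute L-DOPA. The groups did not overlap, and the difference was 0.80 ± 0.20 (SE) on the log2 scale (adjusted p = 0.0236, edgeR). Hist1h1c had 6.18, 6.01 and 7.19 CPM in the unlesioned and 7.95, 7.55 and 8.16 CPM in the lesioned libraries, again without overlap, a difference of 0.29 ± 0.08 (adjusted p = 0.0269, edgeR). Both calls depended on single libraries. The call of Hist1h1c was lost without unlesioned replicate 1 (0.26) or 2 (0.25) or without lesioned replicate 2 (0.32) or 3 (0.27), and that of Hist2h4 without unlesioned replicate 2 (0.72) or 3 (0.74) or without lesioned replicate 1 (0.66). The call of Hist2h4 was also lost in DESeq2 (0.80) and with the transcripts of a gene summed (0.75), and that of Hist1h1c with all 12 libraries fitted together (0.29).

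The other genes did not pass. Hist1h2ac, an H2A gene, had 0.416, 0.274 and 0.3 CPM in the unlesioned and 0.47, 0.52 and 0.447 CPM in the lesioned libraries (0.52 ± 0.20, adjusted p = 0.113, edgeR). The most abundant genes showed small differences: Hist1h2bc 0.14 ± 0.12, Hist3h2a -0.13 ± 0.07 and Hist3h2ba 0.07 ± 0.14 on the log2 scale. In the same libraries the summed level of the oligodendrocyte markers was 2140 to 2380 CPM in the unlesioned and 2170 to 3580 CPM in the lesioned striatum, with 1 of 7 markers called higher. Astrocyte markers were at 155 to 171 against 191 to 236 CPM (2 of 5 called higher), microglia markers at 55.4 to 58.2 against 60.2 to 72.5 CPM (1 of 6) and markers of oligodendrocyte precursors at 57.1 to 61.8 against 66.2 to 76.8 CPM (1 of 5), all without overlap. The summed level of the neural progenitor markers was 9.98 to 15.4 and 15.4 to 22.7 CPM, with 3 of 6 called higher. Cortical neuron markers were at 12.9 to 30.0 CPM in the unlesioned and 1.75 to 15.6 CPM in the lesioned libraries. Of 8 markers of medium spiny neurons 4 were called higher and 3 lower. No marker of these lists was at 0 in all libraries. Their part in the histone result was not tested, and in bulk tissue more cells of a type and more RNA per cell cannot be told apart.

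**Figure D3:**
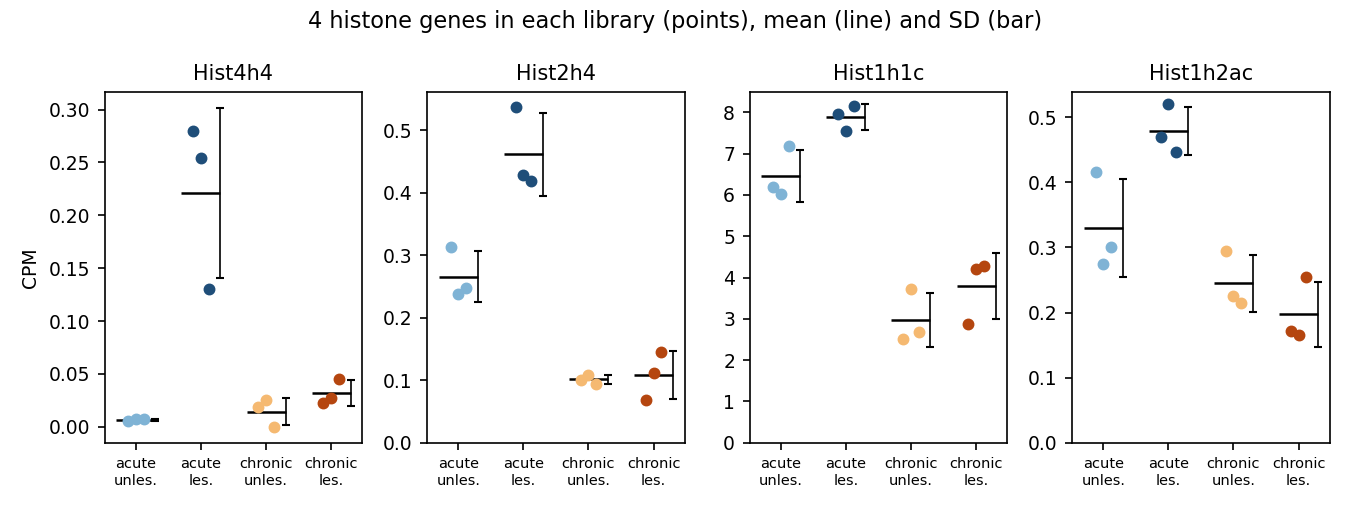
Levels of Hist4h4, Hist2h4, Hist1h1c and Hist1h2ac in CPM (vertical axes) in the 12 libraries, by group (horizontal axes; les., lesioned, unles., unlesioned). Points are libraries, lines are means and bars are SD (n = 3); for Hist4h4 the acute lesioned libraries lie between 0.13 and 0.28 CPM and every other library lies at or below 0.0456 CPM.

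The second comparison repeated this after 9 days of L-DOPA. No histone gene was called of 14 that passed the filter (edgeR), beside 12.0% of all transcripts, while 3 had an unadjusted p under 0.05. DESeq2 called 0 and gave no adjusted p for 2 of the 14. Libraries with the same replicate number deviated together, and in a fit that blocks on replicate 3 of the 14 rose, beside 11.7% of transcripts called higher in that fit. Hist3h2ba had 2.06, 1.87 and 2.26 CPM in the unlesioned and 2.65, 2.46 and 3.23 CPM in the lesioned libraries, without overlap, a difference of 0.43 ± 0.13 (adjusted p = 0.0594 without and 0.00744 with the block, edgeR). Hist1h1c had 2.52, 3.73 and 2.68 CPM in the unlesioned and 2.87, 4.21 and 4.29 CPM in the lesioned libraries. The groups overlapped, but each lesioned library was above the unlesioned library of its number, and the adjusted p was 0.253 without and 0.0388 with the block (edgeR). Hist1h2bc had 2.2, 3.66 and 2.56 CPM in the unlesioned and 2.66, 4.28 and 3.81 CPM in the lesioned libraries, which was likewise higher in 3 of 3 pairs (adjusted p = 0.306 without and 0.0201 with the block, edgeR). Hist4h4 did not pass the filter in this comparison. Without the block, 1 gene was called when chronic unlesioned replicate 2, which stands apart by choroid plexus markers (463 CPM against 0.485 to 2.99 CPM in the other 11 libraries), was left out, and also without chronic lesioned replicate 2. Astrocyte markers were at 131 to 147 CPM in the unlesioned and 166 to 217 CPM in the lesioned libraries, without overlap and with 1 of 5 called higher, and 1 of 6 neural progenitor markers was called higher (11.4 to 17.0 against 12.7 to 25.0 CPM). Their part in the histone values was not tested.

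The lesion effects after chronic and acute L-DOPA were compared directly by an interaction over all 12 libraries. None of 17 histone genes was called (edgeR), beside 4.52% of all transcripts, with 2 genes at an unadjusted p under 0.05. DESeq2 also called 0, but gave no adjusted p for 9 of the 17. These 2 were Hist4h4, with a difference of -3.63 ± 1.18 on the log2 scale (adjusted p = 0.103, edgeR), and Hist1h2ac, with -0.81 ± 0.34 (adjusted p = 0.203, edgeR). Without chronic unlesioned replicate 3, which has 0 counts of Hist4h4, 1 histone gene was called, and it was Hist4h4. In both fits Hist4h4 passed the filter only through the acute lesioned libraries, where it is high. Its p and this call thus depend on a filter that the difference itself decided. With the replicate block and the GC and length trend removed, Hist3h2ba was called (0.40 ± 0.12, adjusted p = 0.0401, edgeR), which it was not without both (0.36 ± 0.20, adjusted p = 0.352, edgeR) or with the block alone (adjusted p = 0.0739, edgeR).

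More histone genes were called between chronic and acute L-DOPA than between the sides. In the lesioned striatum 16 histone genes passed the filter and 14 were called (edgeR), beside 23.3% of all transcripts: 12 fell, beside 11.2% of transcripts called lower, and 2 rose, beside 12.1% called higher. Of the 12 that fell, Hist4h4, Hist1h4h, Hist1h4k and Hist2h4 passed the filter only with the acute lesioned libraries, where they are high. The count thus depends in part on the filter. In the unlesioned striatum 15 passed and 8 were called, beside 2.61% of all transcripts, and all 8 fell, beside 1.64% called lower. Of these 8, Hist1h4k and Hist2h3c2-ps passed the filter only with the acute unlesioned libraries, where they are high. This count too depends in part on the filter. The median over the genes tested was -1.06 in the lesioned and -0.86 in the unlesioned striatum on the log2 scale, against -0.01 and 0.0 over all transcripts. Summed over the 69 genes, the libraries held 27.8 to 32.2 CPM (unlesioned) and 30.7 to 35.9 CPM (lesioned) after acute and 16.8 to 21.3 CPM (unlesioned) and 18.0 to 22.8 CPM (lesioned) after chronic L-DOPA. The chronic libraries came from other mice than the acute ones, and both comparisons also share their libraries with the lesion comparisons above.

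Among the linker histones both tested genes fell on both sides. Hist1h1e shares counts with Hist1h2be, which also fell, so the falls of Hist1h1e and Hist1h2be are not independent. Hist1h1c had 7.95, 7.55 and 8.16 CPM after acute and 2.87, 4.21 and 4.29 CPM after chronic L-DOPA in the lesioned striatum, a fall of -1.05 ± 0.13 on the log2 scale (adjusted p = 0.000387, edgeR). In the unlesioned striatum it had 6.18, 6.01 and 7.19 CPM against 2.52, 3.73 and 2.68 CPM (-1.12 ± 0.14, adjusted p = 0.00895, edgeR). The acute and chronic libraries did not overlap on either side. Hist1h1e had 1.06, 0.775 and 0.55 CPM against 0.182, 0.203 and 0.137 CPM in the lesioned striatum (-2.20 ± 0.29) and 0.815, 0.504 and 0.577 CPM against 0.12, 0.234 and 0.161 CPM in the unlesioned striatum (-1.88 ± 0.27), again without overlap.

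Of the H2B genes, Hist1h2bc fell from 6.73, 5.47 and 4.6 CPM to 2.66, 4.28 and 3.81 CPM in the lesioned striatum (-0.64 ± 0.17, adjusted p = 0.0216, edgeR), and from 5.59, 4.74 and 4.95 CPM to 2.2, 3.66 and 2.56 CPM in the unlesioned striatum (-0.86 ± 0.16, adjusted p = 0.0237, edgeR). Hist1h2be, whose model overlaps Hist1h1e, fell from 2.73, 2.37 and 1.79 CPM to 0.307, 0.916 and 0.574 CPM in the lesioned striatum (-1.91 ± 0.28), and by a like amount on the other side (-1.97 ± 0.28). Hist2h2be fell in the lesioned striatum, from 2.0, 1.55 and 1.76 CPM to 1.08, 1.21 and 0.729 CPM (-0.82 ± 0.18, adjusted p = 0.00847, edgeR), and was not called in the unlesioned striatum (-0.35 ± 0.12, adjusted p = 0.121, edgeR). Hist3h2ba went the other way: it rose from 1.83, 1.46 and 2.08 CPM to 2.65, 2.46 and 3.23 CPM in the lesioned striatum (0.63 ± 0.15, adjusted p = 0.012, edgeR), and in the unlesioned striatum it was at 1.86, 1.48 and 1.8 against 2.06, 1.87 and 2.26 CPM (0.27 ± 0.12, adjusted p = 0.212, edgeR).

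Of the H2A genes, Hist3h2a fell on both sides with a small difference, from 8.76, 8.62 and 7.84 CPM to 6.12, 6.94 and 6.63 CPM in the lesioned striatum (-0.36 ± 0.08, adjusted p = 0.0123, edgeR) and from 9.79, 8.39 and 9.4 CPM to 6.17, 7.34 and 6.05 CPM in the unlesioned striatum (-0.50 ± 0.09, adjusted p = 0.0264, edgeR). Hist3h2a and Hist3h2ba are neighbours on chromosome 11 and moved in opposite directions in the lesioned striatum. Hist1h2ac fell in the lesioned striatum from 0.47, 0.52 and 0.447 CPM to 0.171, 0.166 and 0.255 CPM (-1.26 ± 0.24, adjusted p = 0.00434, edgeR), and was at -0.45 ± 0.24 in the unlesioned striatum (adjusted p = 0.301, edgeR). The model listed for Hist1h2al rose in the lesioned striatum (0.50 ± 0.15, adjusted p = 0.0324, edgeR), a call lost in 8 of 17 alternatives, with the replicate block (adjusted p = 0.0579, edgeR) and in DESeq2 among them.

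Hist1h2ac and Hist1h2bc are read away from each other, and 239 bases lie between their starts. This stretch is shown because both genes fell in the lesioned striatum. Capitals mark the motif CCAAT, the motif TATAAA and the octamer of H2B promoters, ATTTGCAT, on either strand. The cAMP response element, TGACGTCA, was also searched and is not in it, and neither is the AP-1 motif, TGANTCA.
Between Hist1h2ac and Hist1h2bc, chr13:23775829-23776067 (+ strand): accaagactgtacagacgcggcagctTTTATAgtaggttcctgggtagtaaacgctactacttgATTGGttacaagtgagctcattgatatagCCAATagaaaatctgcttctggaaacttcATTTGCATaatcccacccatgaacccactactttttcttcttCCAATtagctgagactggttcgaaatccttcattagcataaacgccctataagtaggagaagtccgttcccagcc
CCAAT was present 2 times on the strand shown and 1 time on the other, TATAAA 1 time on the other strand and ATTTGCAT 1 time on the strand shown. In windows of the same length before the starts of 52140 genes, CCAAT was present in 32.2%, TATAAA in 15.6% and ATTTGCAT in 1.8%. In the windows from 250 bases before to 50 bases after the start, CCAAT was present in 57 of the 69 histone genes and in 36.9% of all genes, TATAAA in 36 and in 17.9%, ATTTGCAT in 15 and in 2.1%, TGACGTCA in 4 and in 1.3%, and TGANTCA in 3 and in 7.8%. The window of Hist4h4, the gene with the greatest difference after acute L-DOPA, held none of the 5 motifs. A match is a description of the letters and not a site.

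Of the H4 genes, Hist2h4 fell from 0.538, 0.428 and 0.419 CPM to 0.0683, 0.111 and 0.146 CPM in the lesioned striatum (-2.06 ± 0.29, adjusted p = 0.000761, edgeR) and from 0.313, 0.238 and 0.247 CPM to 0.101, 0.109 and 0.0941 CPM in the unlesioned striatum (-1.40 ± 0.26, adjusted p = 0.0242, edgeR). In the lesioned striatum Hist2h4 passed the filter only with the acute libraries, where it is high. Hist4h4 fell in the lesioned striatum from 73 to 10 counts, a scaled ratio of 0.146 (exact 95% interval 0.0672 to 0.284, counting error only; fitted difference -2.73 ± 0.46). It passed the filter here too only through the acute lesioned libraries, and with no filter it was at -2.72 (adjusted p = 0.000626, edgeR). Hist1h4k fell on both sides (-1.07 ± 0.33 and -1.59 ± 0.32, adjusted p = 0.0401 and 0.031, edgeR), calls lost in 11 of 17 and 9 of 16 alternatives. On both sides Hist1h4k passed the filter only with the acute libraries, where it is high. Hist1h4h fell in the lesioned striatum (-1.21 ± 0.38, adjusted p = 0.041, edgeR), a call lost in 11 of 17 alternatives, with 23, 15 and 19 counts after acute and 5, 13 and 5 after chronic L-DOPA. It passed the filter in this comparison through the acute libraries, where it is high, and did not pass among the chronic libraries alone. Hist1h4i was not called on either side (-0.71 ± 0.33 and -1.12 ± 0.27, adjusted p = 0.138 and 0.0539, edgeR). Of the H3 entries only Hist2h3c2-ps was tested, and it fell from 0.546, 0.474 and 0.382 CPM to 0.102, 0.268 and 0.237 CPM in the lesioned striatum (-1.18 ± 0.30) and was at -1.90 ± 0.35 in the unlesioned striatum, where it was called too. In the unlesioned striatum it passed the filter only with the acute libraries, where it is high.

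**Figure D4:**
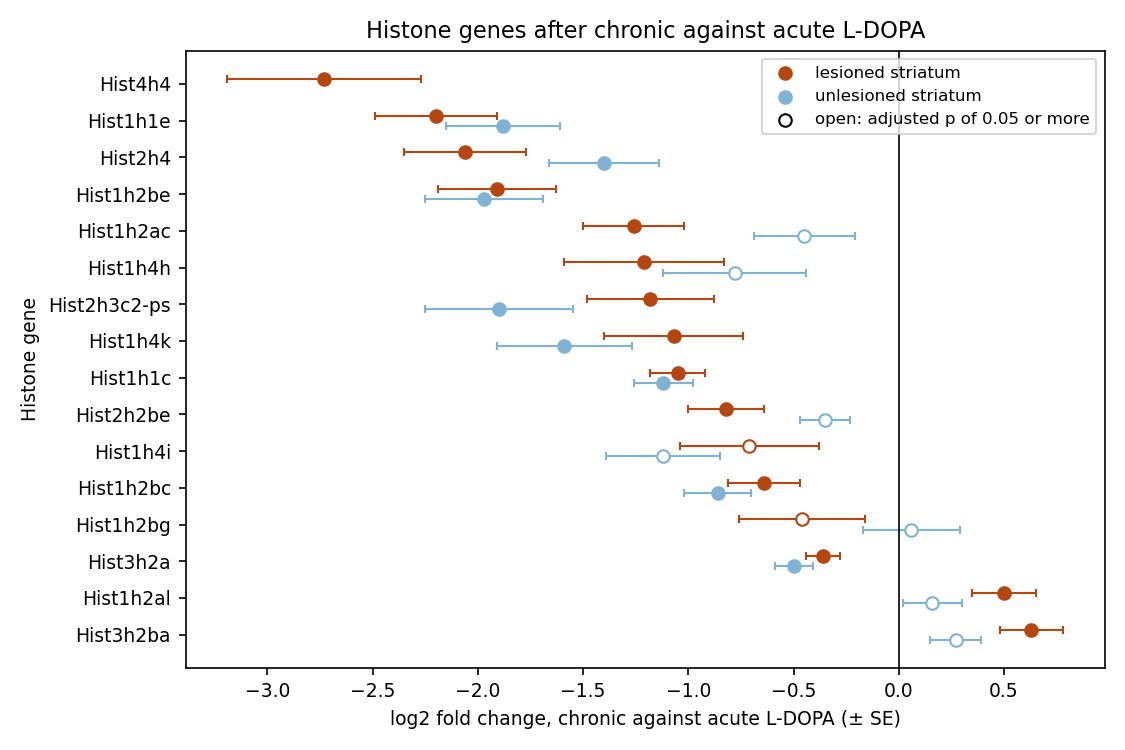
Fitted log2 fold change of chronic against acute L-DOPA (horizontal axis, points, with SE bars) for the histone genes tested in the lesioned (brown) and the unlesioned (blue) striatum; filled points have an adjusted p under 0.05. The values run from -2.73 for Hist4h4 to 0.63 for Hist3h2ba, and only Hist1h2al and Hist3h2ba lie above 0 in the lesioned striatum.

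These counts depended on single libraries. In the unlesioned striatum the 8 calls became 0 without acute replicate 1, 2 without acute replicate 2, 3 without acute replicate 3 or without chronic replicate 1, and 1 without chronic replicate 3, while the fitted fold change of each of the 8 genes stayed below 0 with each library left out in turn. Without chronic unlesioned replicate 2, the library with choroid plexus markers, 10 histone genes were called. In the lesioned striatum the 14 calls became 8 without acute replicate 1, without acute replicate 2 or without chronic replicate 1. Hist1h1c, Hist1h1e, Hist1h2ac, Hist1h2be, Hist2h2be, Hist2h4 and Hist4h4, which fell, and Hist3h2ba, which rose, were called in the lesioned striatum with each library left out in turn. Of the other calls there, those of Hist1h2bc and Hist2h3c2-ps were each lost in 6 of 17 alternatives and that of Hist3h2a in 4 of 17. In the unlesioned striatum the call of Hist1h1c was lost in 1, that of Hist1h1e in 4, that of Hist1h2be in 5, that of Hist1h2bc in 7 and that of Hist3h2a in 8 of 17 alternatives, and those of Hist2h3c2-ps and Hist2h4 in 8 of 16.

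Other cell markers moved with the treatment too. In the lesioned striatum all 7 oligodendrocyte markers fell from acute to chronic L-DOPA, with a median of -0.82 on the log2 scale and a summed level of 2170 to 3580 CPM against 1200 to 2150 CPM, as did 3 of 5 markers of oligodendrocyte precursors (66.2 to 76.8 against 32.1 to 49.5 CPM), 4 of 6 of microglia (60.2 to 72.5 against 40.3 to 51.5 CPM), 3 of 5 of astrocytes and 2 of 3 of blood. In the unlesioned striatum 0 of 7 oligodendrocyte markers were called (median -0.19; 2140 to 2380 against 1610 to 2290 CPM), while 2 of 5 markers of oligodendrocyte precursors (57.1 to 61.8 against 36.3 to 50.4 CPM), 2 of 5 of astrocytes and 1 of 6 of microglia fell. Of 8 markers of medium spiny neurons, 1 rose and 2 fell in the lesioned striatum (median -0.07) and 1 fell in the unlesioned striatum (median -0.01). The part of these cells in the histone result was not tested.

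The genes that supply and handle histones were described from lists. Of 12 replication-independent and variant histone genes, all tested, 4 rose after acute L-DOPA in the lesioned against the unlesioned striatum, beside 6.85% of all transcripts. H3f3b, which encodes the replacement histone H3.3, had 14.3, 16.1 and 15.3 CPM in the unlesioned and 23.7, 23.7 and 25.8 CPM in the lesioned libraries (0.68 ± 0.07, adjusted p = 3.53e-05, edgeR), and 15.4, 14.5 and 15.5 against 24.6, 24.9 and 27.3 CPM after chronic L-DOPA (0.76 ± 0.08, adjusted p = 0.000128, edgeR). The groups did not overlap after either treatment. Cenpa, the centromeric H3, rose after acute L-DOPA from 0.108, 0.108 and 0.105 CPM to 0.227, 0.382 and 0.298 CPM (1.46 ± 0.27, adjusted p = 0.00492, edgeR). H2afj, an H2A variant gene, rose by 0.28 ± 0.08 (adjusted p = 0.0369, edgeR), a call lost without either unlesioned replicate 1 or 2 (0.23 and 0.25) and without lesioned replicate 1, 2 or 3 (0.25 to 0.31). From acute to chronic L-DOPA in the lesioned striatum 1 variant gene rose and 4 fell, beside 12.1% and 11.2% of all transcripts, among those that fell Cenpa (-1.68 ± 0.37), H2afv (-0.97 ± 0.10) and H2afj (-0.43 ± 0.10). Cenpa passed the filter in this comparison only with the acute lesioned libraries, where it is high. In the unlesioned striatum 2 fell, beside 1.64%, H2afv (-0.35 ± 0.08) among them, a call lost without acute unlesioned replicate 1, 2 or 3 or without chronic unlesioned replicate 1 or 3 (-0.37 to -0.31).

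Of 22 genes of S phase and mitosis, 20 were tested after acute L-DOPA and 4 rose, beside 6.85% of all transcripts, with none lower. Pcna, the clamp of DNA polymerases, had 3.0, 3.18 and 2.96 CPM in the unlesioned and 7.3, 6.85 and 7.16 CPM in the lesioned libraries (1.23 ± 0.07, adjusted p = 2.78e-07, edgeR). Cdc6, which licenses replication origins, had 0.057, 0.101 and 0.03 CPM against 0.371, 0.393 and 0.438 CPM (2.66 ± 0.33, adjusted p = 0.000272, edgeR). It too passed the filter through the acute lesioned libraries where it is high, and with no filter it was at 2.65 (adjusted p = 1.14e-05, edgeR). Rrm2, a subunit of ribonucleotide reductase, rose by 0.95 ± 0.25 (adjusted p = 0.0303, edgeR), a call lost without unlesioned replicate 1 (0.95) or 3 (0.75) or without lesioned replicate 2 (0.92) or 3 (0.75). After chronic L-DOPA 3 of 18 rose, beside 7.71% of all transcripts, Pcna by 0.89 ± 0.10 among them. From acute to chronic L-DOPA in the lesioned striatum 2 of 20 rose, beside 12.1%, E2f1 by 0.86 ± 0.15 among them, and 3 fell, beside 11.2%, among them Cdc6 (-2.27 ± 0.43) and Pcna (-0.32 ± 0.09). Cdc6 passed the filter here too only with the acute lesioned libraries, so this count depends in part on the filter. With no filter Cdc6 was at -2.27 (adjusted p = 0.000708, edgeR). The call of Pcna was lost without acute lesioned replicate 1, 2 or 3 or without chronic lesioned replicate 1 or 3 (-0.34 to -0.24). None of 20 was called in the unlesioned striatum. The median over the list was 0.40 after acute and 0.23 after chronic L-DOPA between the sides, and -0.06 and 0.02 between treatments in the lesioned and unlesioned striatum.

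Of 16 genes for the processing and decay of histone mRNA, 1 rose and 2 fell after acute L-DOPA, beside 6.85% and 6.02% of all transcripts. Zfp473, the zinc finger protein of the U7 complex that cuts histone pre-mRNA, had 0.211, 0.266 and 0.225 CPM in the unlesioned and 0.614, 0.486 and 0.363 CPM in the lesioned libraries (1.08 ± 0.23, adjusted p = 0.01, edgeR). Coil, the marker protein of Cajal bodies, fell from 3.96, 4.0 and 4.07 CPM to 2.81, 2.84 and 2.85 CPM (-0.49 ± 0.07, adjusted p = 0.00115, edgeR), and Cpsf2, a subunit of the cleavage complex, was at -0.27 ± 0.06, a call lost without unlesioned replicate 2 (-0.26). After chronic L-DOPA 2 fell, beside 4.33% of all transcripts, Casp8ap2 (-0.56 ± 0.13) and Coil (-0.34 ± 0.10). The call of Casp8ap2 was lost without unlesioned replicate 1 (-0.48) or 3 (-0.51) or without lesioned replicate 3 (-0.50), and that of Coil without unlesioned replicate 1 or 3 or without lesioned replicate 1, 2 or 3 (-0.38 to -0.27) and in 11 of 17 alternatives in all. From acute to chronic L-DOPA in the lesioned striatum 1 of 16 rose and 1 fell, beside 12.1% and 11.2% of all transcripts. The gene that rose was Cpsf2 (0.31 ± 0.08, adjusted p = 0.0218, edgeR), a call lost in 6 of 17 alternatives. Slbp, which binds the stem-loop, was not called in any of the 5 comparisons. Of 12 histone chaperones tested, 1 rose after acute L-DOPA, beside 6.85% of all transcripts, and 2 fell from acute to chronic L-DOPA in the lesioned striatum, beside 11.2%. Nasp, a chaperone of H1, H3 and H4, rose from 1.98, 2.21 and 1.57 CPM to 4.26, 3.74 and 3.75 CPM (1.03 ± 0.12, adjusted p = 0.000172, edgeR), and it fell from acute to chronic L-DOPA in the lesioned striatum (-0.83 ± 0.12, adjusted p = 0.000707, edgeR), as did Nap1l1 (-0.23 ± 0.07, adjusted p = 0.0448, edgeR), a call lost with each of the 6 libraries left out in turn (-0.27 to -0.19) and in 13 of 17 alternatives in all.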

How the data were processed

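Striatal RNA of 12 libraries was sequenced on a Genome Analyzer II from TruSeq RNA libraries. The authors mapped the reads to mm9 and deposited the read count of every transcript of the Genomatix list, a read being counted on each transcript it overlaps, so that overlapping genes share counts. Strand and the treatment of reads with several positions are not given in the sources used here. The authors also deposited normalized expression values, a signal scaled by transcript length and library size, which served only to check the counts. The tables of the authors' own DESeq comparisons (fold changes and p-values) and 36 per-sample columns were not used.

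Groups were taken from the labels. Transcripts without a gene name (296, holding 0.0485% of counts) were left out of library sizes and tests. Counts were fitted for each comparison with edgeR 4.0.16 in R 4.3.3 (filterByExpr, TMM factors, glmQLFit and glmQLFTest), with p-values adjusted over all transcripts tested and a call at an adjusted p under 0.05. The SE was taken from the fold change and the F statistic. DESeq2 1.42.0, DESeq2 size factors, no filter, other choices of transcript, a replicate block, GC and length trends and leaving out each library were the alternatives. The fits were tested on simulated data. Intervals of count ratios are exact, and intervals and floors cover counting error only.

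The genes named were the 12 with the highest level per kb, the called genes of each comparison (up to 10, otherwise the 5 largest rises and falls) and up to 4 called genes of each list. Others were named after their values were seen. The histone genes and the lists were chosen with earlier results of these data known. The study presents the unlesioned side as a control within each mouse, whereas the design text counts 12 mice, and which libraries share a mouse is not given in the sources used here. Libraries of the same number were taken as pairs because their deviations from the group means correlated (0.472, 0.465 and 0.385 after acute and 0.515, 0.572 and 0.159 after chronic L-DOPA, over 12794 genes). Libraries of different number correlated between -0.515 and 0.153, the highest being chronic lesioned replicate 1 with chronic unlesioned replicate 3, so the chronic pairing is less distinct for replicate 3. With 3 libraries against 3, an exact permutation test cannot go below p = 0.10. Where libraries came from the same animals, p-values measure only the spread between these samples. Sequences were read from mm9 and gene models of GENCODE vM1. Proteins were not used here.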

Additional observations from a re-analysis of the deposited data

Results flagged for a closer look

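For 3 genes of the lists the lesion effect differed between chronic and acute L-DOPA in the interaction test (edgeR, adjusted over all transcripts), 1 of 12 variant histones, 1 of 13 chaperones and 1 of 20 genes of S phase and mitosis, with 0 of 16 genes of processing and decay and 0 of 2 RNAs without a poly(A) tail, beside 4.52% of all transcripts. These shares are near that of all transcripts, and nothing is read from the counts. H2afv, an H2A.Z gene, differed by -0.62 ± 0.12 on the log2 scale (adjusted p = 0.00764), with a lesion effect of 0.16 after acute and -0.46 after chronic L-DOPA. Nasp differed by -0.75 ± 0.18 (adjusted p = 0.0288), with 1.03 after acute and 0.27 after chronic L-DOPA. Mcm5, a subunit of the replicative helicase that was named after its values were seen, differed by 0.72 ± 0.17 (adjusted p = 0.0224), with 0.04 and 0.75. The call of H2afv held in each of 22 alternatives, that of Nasp was lost in 6 of 22 and that of Mcm5 in 7 of 22. Nasp lost it without acute unlesioned replicate 1 or 3, acute lesioned replicate 1, chronic unlesioned replicate 1 or chronic lesioned replicate 3 (-0.77 to -0.63), and Mcm5 without acute unlesioned replicate 1 or 2, acute lesioned replicate 1 or 3, chronic unlesioned replicate 3 or chronic lesioned replicate 1 (0.67 to 0.71).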

How the results depend on the processing

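At an adjusted p under 0.01, the calls were 1 after acute L-DOPA, 7 between treatments in the lesioned and 1 in the unlesioned striatum. DESeq2 called 1 and 5 genes in the acute and the unlesioned comparison, where Hist4h4 and, in the other, Hist1h4k, Hist2h3c2-ps and Hist2h4 received no adjusted p (nor did 9 of 17 genes in the interaction). Summing the transcripts of a gene left 1 call in the unlesioned striatum. With the replicate block, the calls after chronic L-DOPA went from 0 to 3, and over all transcripts from 15295 to 27505 (acute, 16684 to 28237; interaction, 5911 to 15876); it left 11 and 7 calls between treatments, where the numbers mark different mice, and moved no other count of histone genes by over 1.5 times. The block together with removal of the GC and length trend, added after seeing the data, gave 3 calls after chronic L-DOPA, 4 in the unlesioned striatum and 1 (Hist3h2ba) in the interaction. Fitting all 12 libraries together gave 1 call after chronic L-DOPA. Leaving out each library gave 1 to 2 calls after acute and 0 to 1 after chronic L-DOPA, 8 to 14 in the lesioned and 0 to 10 in the unlesioned striatum and 0 to 1 in the interaction; over all transcripts the unlesioned calls ran from 66 to 14377 against 3366. The cause was not tested. Over single genes, 783 of 984 settings kept direction and call, 192 lost a call, 9 gained a call and 0 turned direction. Depth limits genes with few counts, such as Hist4h4.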
